A study of Mus musculus with 6 samples.

Results

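The 10 genes Slc7a1, Slc7a2, Slc7a5, Slc7a11, Slc3a2, Slc38a2, Slc38a3, Slc1a4, Slc1a5 and Slc6a9 encode proteins that carry amino acids across the plasma membrane. Every probe whose platform symbol was one of these names was taken, which gave 25 probes of the 45281 on the array. Slc7a5 had no probe under its symbol, and Slc7a1, Slc3a2 and Slc1a5 had no probe above the detection filter, so 6 of the 10 were measured. Liver RNA was compared between 3 vehicle and 3 tunicamycin arrays on an Illumina bead array, on which each probe is read as the brightness of bound, labelled copies of the RNA. All mice were C57Bl/6N and 8 weeks old, and all livers were taken 12 hours after an intraperitoneal injection. The tunicamycin group (Tuni) received 2.5 mg/kg and the control group (Ctrl) an equal volume of vehicle, which was PBS with 100 mM glucose and DMSO. The samples are whole liver, and the sex of the mice is not given in the sources used here. The titles number the arrays 1 to 3 in each group and nothing states that these are separate animals, so a p-value here speaks of the spread among these 6 arrays, which may be technical.

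Amino acid transporters fall into families by substrate and mechanism. Slc7a1 and Slc7a2 carry arginine, lysine and ornithine. Slc7a5 and Slc7a11 are light chains that reach the cell surface only when joined to the heavy chain Slc3a2, the first exchanging large neutral amino acids and the second exchanging cystine for glutamate. Slc38a2, Slc38a3, Slc1a4 and Slc1a5 carry neutral amino acids with sodium, and Slc6a9 carries glycine. Tunicamycin blocks N-linked glycosylation and so stresses the endoplasmic reticulum. The kinase PERK then raises translation of the transcription factor ATF4, which is known to activate genes of amino acid uptake and synthesis through C/EBP-ATF response elements. The comparison asks which transporter transcripts differ in liver after this challenge.

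The tunicamycin livers had more Slc7a11, Slc1a4 and Slc6a9 RNA and less Slc7a2, Slc38a2 and Slc38a3 RNA. Slc1a4 rose 4.07-fold and Slc6a9 2.0-fold. Slc7a11 went from not well above background to at least 3.15-fold higher on its brightest probe and 1.68-fold on the other kept probe. These bounds hold for the main setting and carry no error. Slc38a3 fell 2.19-fold, Slc7a2 1.75-fold and Slc38a2 1.58-fold, each by its brightest probe. Of the 6 measured transporters, 3 rose and 3 fell, where 31.2% of the 9332 named genes measured rose and 33.1% fell by the same test. The test was limma's moderated test with Benjamini-Hochberg adjustment over 16559 probes and a threshold of 0.05. It called 64.3% of all named genes, so a call by itself sets none of these transporters apart. Of the 11 probes above the filter, 4 rose and 4 fell, where 31.8% of all kept probes rose and 29.8% fell, 61.5% in all. The 3 tunicamycin arrays lay wholly above or below the 3 vehicle arrays for 6 of the 6, and for 68.6% of all named genes. Slc7a11 is counted in all of these, but both its kept probes passed the filter through the tunicamycin arrays alone. A difference was therefore built into its selection. At least 2-fold, 11.4% of named genes rose and 12.4% fell. Slc1a4 had rank 242 and Slc6a9 rank 1062 among the fitted rises of all named genes, and Slc38a3 rank 971 among the falls. Slc7a11 has only a bound and is given no rank.

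**Figure D1:**
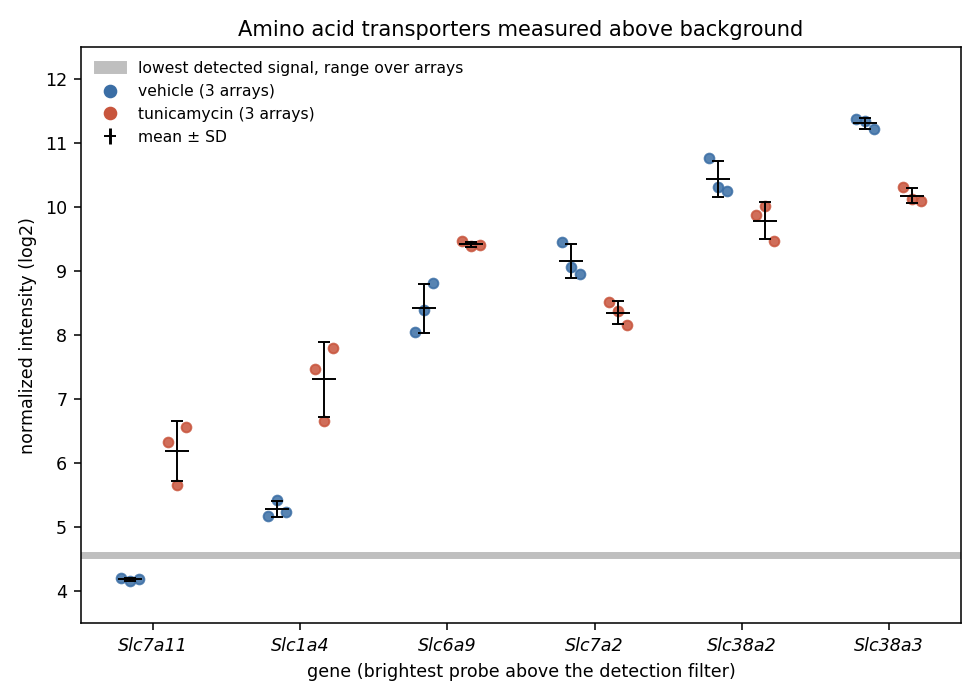
Normalized log2 intensity of the 6 measured transporters on each of 3 vehicle and 3 tunicamycin arrays, with group mean and SD, for the brightest probe of each gene. The grey band is the range over arrays of the lowest detected signal, 4.51 to 4.59; vehicle points of Slc7a11 lie under it, and heights are not comparable between genes.

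Detection was similar on the arrays of both groups. Between 15503 and 16603 probes were detected on an array, and median raw signals were 88.9 to 96.8. Within a group, the correlation of arrays over the kept probes was r = 0.989 to 0.994; probes are not replicates. Hepatocyte markers were measured for 17 of 20 genes, while the probes for Alb, Fgb and Tat were below the filter. The summed hepatocyte signal was 262462 to 277795 in vehicle and 220437 to 228323 in tunicamycin livers, and 9 of the 17 fell. Macrophage markers fell in 10 of 12, from a summed 3829 to 5442 down to 1036 to 2653. Endothelial markers fell in 7 of 11 and stellate markers in 5 of 9. Among all named genes, 33.1% fell by the same test. Erythroid markers fell in 2 of 3, lymphocyte markers in 1 of 2, and bile duct markers in 0 of 2 by limma, also at an unadjusted p under 0.05. Of the erythroid falls, Slc4a1 passed the filter through the vehicle arrays alone, so a difference was built into its selection. The summed signal was 4210 to 4910 against 3543 to 3794 for endothelium and 5418 to 6121 against 4732 to 4843 for stellate cells. It was 10516 to 14250 against 6492 to 10279 for erythroid, 58.7 to 77.9 against 43.3 to 49.8 for lymphocyte and 222 to 326 against 188 to 277 for bile duct markers. In whole tissue, fewer cells of a type and less RNA per cell cannot be told apart, and the part of these shifts in the transporter results was not tested.

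Slc7a11, the cystine-glutamate exchanger known as xCT, was read by 5 probes. On the brightest of the 2 that passed the filter, ILMN_2948143, the normalized log2 intensity on the vehicle arrays was 4.20, 4.17 and 4.19. On the tunicamycin arrays it was 6.33, 5.67 and 6.58. The vehicle values lay together at the background, where detection p-values were 0.658 to 0.884, and every tunicamycin value stood clear of them. By group means at the main setting, the level was at least 3.15-fold higher (adjusted p = 7.03e-06, limma). The second probe, ILMN_2740738, read 4.44, 4.31 and 4.26 on vehicle arrays and 5.49, 5.20 and 5.17 on tunicamycin arrays, which is at least 1.68-fold higher (adjusted p = 5.75e-05, limma). Both probes passed the filter through the tunicamycin arrays alone, so a difference was built into their selection. Without background correction the fitted log2 difference of the brightest probe was 0.77, still past the threshold. The other 3 Slc7a11 probes were not detected on any array, with normalized log2 intensities of 4.15 to 4.41. Of these 3, 2 are annotated to other cDNA records than the RefSeq transcript of the detected probes.

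The promoter window of Slc7a11 is shown because it holds the C/EBP-ATF response element letters on both strands. The search took TGATGNAA and its reverse complement TTNCATCA in windows of 250 bases before to 50 bases after each listed RefSeq gene start (GRCm38.p6). The 100 bases before the Slc7a11 start are chr3:50443614-50443713 on the minus strand, printed 5′ to 3′ along the gene with the matching letters in capitals.
Slc7a11: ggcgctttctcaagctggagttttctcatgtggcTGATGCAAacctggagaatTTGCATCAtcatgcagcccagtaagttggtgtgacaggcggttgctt
The first match covers positions -66 to -59 from the start and the second, on the opposite strand, -47 to -40, without overlap. A match was found in 3.97% of the 32851 mouse windows, and 23 windows, or 0.07%, held at least 2. Of the 10 transporters, 6 had a window, 9 windows in all, and Slc7a11 and Slc1a4 held a match. The windows of Slc38a2, Slc3a2, Slc6a9 and Slc7a1 did not hold these letters. Bases outside the windows were not searched. The windows of Slc3a2 and Slc7a11 do not lie at the outermost end of the gene, so that end was not covered. A match describes the sequence and is not evidence of binding in these livers.

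Slc3a2, the heavy chain (CD98) that Slc7a11 and Slc7a5 need, had a single probe, ILMN_2595359, which did not pass the filter. It was detected on 1 of the 3 tunicamycin arrays and on 0 of the 3 vehicle arrays. Its normalized log2 intensity was 4.18, 4.18 and 4.15 in vehicle and 4.66, 4.38 and 4.45 in tunicamycin livers. The tunicamycin arrays were all higher, but 2 of them were no brighter than the dimmest detected probes, and no fold is given. Without a detection filter the difference passed the threshold, with a log2 difference of 0.32 ± 0.08 (SE, adjusted p = 0.0278, limma). The heavy chain is therefore covered only at the edge of what this array measured, and the light chain Slc7a5 is not analysed here.

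Slc1a4, the exchanger ASCT1 for alanine, serine, cysteine and threonine, was read by 1 probe, ILMN_2888552, detected on all 6 arrays. Its normalized log2 intensity was 5.18, 5.43 and 5.25 in vehicle livers. In tunicamycin livers it was 7.47, 6.67 and 7.80. The groups were far apart, and the tunicamycin arrays differed more among themselves (SD 0.59, n = 3) than the vehicle arrays (SD 0.13, n = 3). The log2 fold change was 2.03 ± 0.24 (SE, adjusted p = 2.82e-05, limma), a fold of 4.07 with a 95% interval of 2.83 to 5.86. Without background correction it was 1.06 on the log2 scale, still past the threshold. Tunicamycin replicate 2 was the lowest of its group for Slc1a4 and for the brightest Slc7a11 probe. On the second Slc7a11 probe, replicate 3 was the lowest, at 5.17 beside 5.20 on replicate 2. For Slc1a4, replicate 2 stood 1.38 above the vehicle mean on the log2 scale, where the other tunicamycin arrays stood 2.18 and 2.52 above it. For Slc7a11 no such difference is given, since its vehicle level was not measured. Tunicamycin replicate 2 was not low for ATF4 and its partner genes, whose mean change was 2.69, 2.76 and 2.66 on tunicamycin arrays 1 to 3. That is a mean of RNA over 13 genes, and its relation to the transporter values was not tested.

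The bases around the Slc1a4 start are shown because the same element letters lie across it, at positions -4 to 4 with no position 0. They are chr11:20332704-20332733 (GRCm38.p6), on the minus strand and printed along the gene, with the 8 matching letters in capitals.
Slc1a4: cagcgtgcctcctgcgTTGCATCAtctcca
Slc7a11 and Slc1a4, the 2 members with these letters in their window, were both higher after tunicamycin, as was Slc6a9, whose windows did not hold them. With 2 genes this is a description only.

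Slc1a5, the related exchanger ASCT2 that takes up glutamine, had 5 probes, and none was detected on any array. Their normalized log2 intensities ran from 4.14 to 4.37 over both groups, under the lowest detected signal of every array. The tunicamycin and vehicle arrays overlapped for each of the 5 probes. Expression of Slc1a5 was therefore not detectable in either group on this array, and its change cannot be given. The Slc1a4 probe was thus detected and the Slc1a5 probes were not, which does not compare the levels of these genes in liver. A difference in their response could not be tested.

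Slc6a9, the glycine transporter GlyT1, had 2 probes. The detected one, ILMN_2667384, had normalized log2 intensities of 8.05, 8.39 and 8.82 on vehicle arrays and 9.47, 9.39 and 9.41 on tunicamycin arrays. The vehicle livers were spread out and the tunicamycin livers lay within 0.1 of each other, above all vehicle values. The log2 fold change was 1.0 ± 0.17 (SE, adjusted p = 0.000455, limma), a fold of 2.0 with a 95% interval of 1.54 to 2.61. The second probe, ILMN_1217832, was not detected on any array. Without vehicle replicate 1, the lowest vehicle array, the log2 fold change was 0.82, and without vehicle replicate 3, the highest, it was 1.20.

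**Figure D2:**
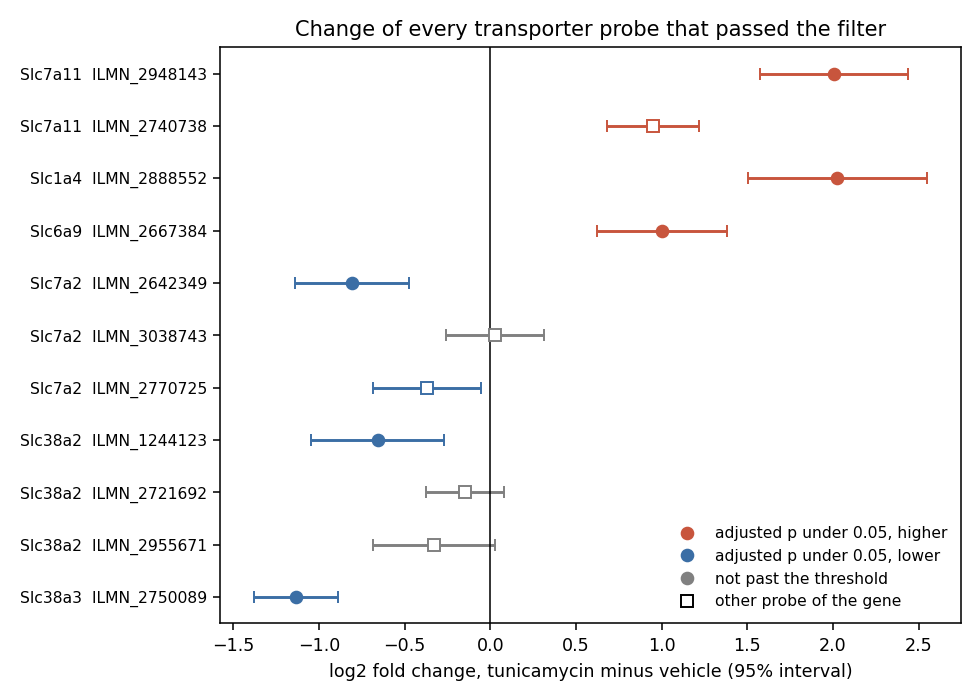
Log2 fold change (tunicamycin minus vehicle) with its 95% interval for the 11 transporter probes above the detection filter. Filled circles are the brightest probe of each gene and open squares its other probes; 4 probes rose, 4 fell and 3 did not pass the threshold, and for Slc7a11 the fitted value has no measured vehicle level behind it.

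Among the transporters that fell, Slc38a3, the sodium-coupled glutamine transporter SNAT3 of hepatocytes, was read by 1 probe, ILMN_2750089. Its normalized log2 intensity was 11.39, 11.34 and 11.22 in vehicle livers and 10.31, 10.14 and 10.10 in tunicamycin livers. Arrays of each group were close together and the groups were clearly apart. The log2 fold change was -1.13 ± 0.11 (SE, adjusted p = 7.27e-06, limma), and it stayed between -1.20 and -1.06 in 16 of 16 alternative settings.

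Slc38a2, the system A transporter SNAT2, which cultured cells are known to induce when amino acids run short, did not rise in these livers. On its brightest probe, ILMN_1244123, the normalized log2 intensity was 10.77, 10.32 and 10.25 in vehicle and 9.88, 10.02 and 9.47 in tunicamycin livers. The groups did not overlap, and the SD was 0.28 in vehicle and 0.29 in tunicamycin livers (n = 3 each). The log2 fold change was -0.66 ± 0.17 (SE, adjusted p = 0.00736, limma). A second probe, ILMN_2955671, read 7.02, 7.15 and 7.19 in vehicle and 6.41, 6.88 and 7.07 in tunicamycin livers, which overlap. Its log2 fold change of -0.33, with a 95% interval of -0.68 to 0.02, did not pass the threshold (adjusted p = 0.0978, limma). The third probe, ILMN_2721692, was dim, detected on 3 vehicle and 0 tunicamycin arrays, and did not pass the threshold (adjusted p = 0.233, limma). Among single probes the call rests on the brightest, and the mean of the 3 probes also passed (adjusted p = 0.00822, limma). That mean includes the third probe, which passed the filter through the vehicle arrays alone, so a difference was built into its selection. The call was lost without a detection filter (adjusted p = 0.0590, limma), and the cause was not tested.

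Slc7a2, the cationic amino acid transporter CAT2 that is abundant in liver, had 5 probes, of which 3 passed the filter. The brightest, ILMN_2642349, read 9.46, 9.07 and 8.95 in vehicle and 8.51, 8.39 and 8.17 in tunicamycin livers, with no overlap. Its log2 fold change was -0.81 ± 0.15 (SE, adjusted p = 0.000819, limma). The second, ILMN_2770725, read 5.93, 5.63 and 5.90 against 5.20, 5.65 and 5.50, and the groups overlapped by the tunicamycin replicate 2 array. Its log2 fold change was -0.37 ± 0.14 (SE, adjusted p = 0.0420, limma). The third, ILMN_3038743, is annotated to a different Slc7a2 transcript from the other 4 probes. It read 4.54, 4.92 and 4.59 in vehicle and 4.79, 4.59 and 4.76 in tunicamycin livers, close to the background. Its log2 fold change was 0.03 with a 95% interval of -0.26 to 0.32 (adjusted p = 0.862, limma). The mean of the 3 probes gave a log2 fold change of -0.38, and that of the Slc38a2 probes also -0.38, so the size of both falls depends on the probe.

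Slc7a1, the related transporter CAT1, which most other tissues use, had 2 probes and neither was detected on any array. Normalized log2 intensities were 4.15 to 4.27 in vehicle and 4.17 to 4.40 in tunicamycin livers. The groups overlapped on both probes, and no change was detectable at this brightness.

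**Figure D3:**
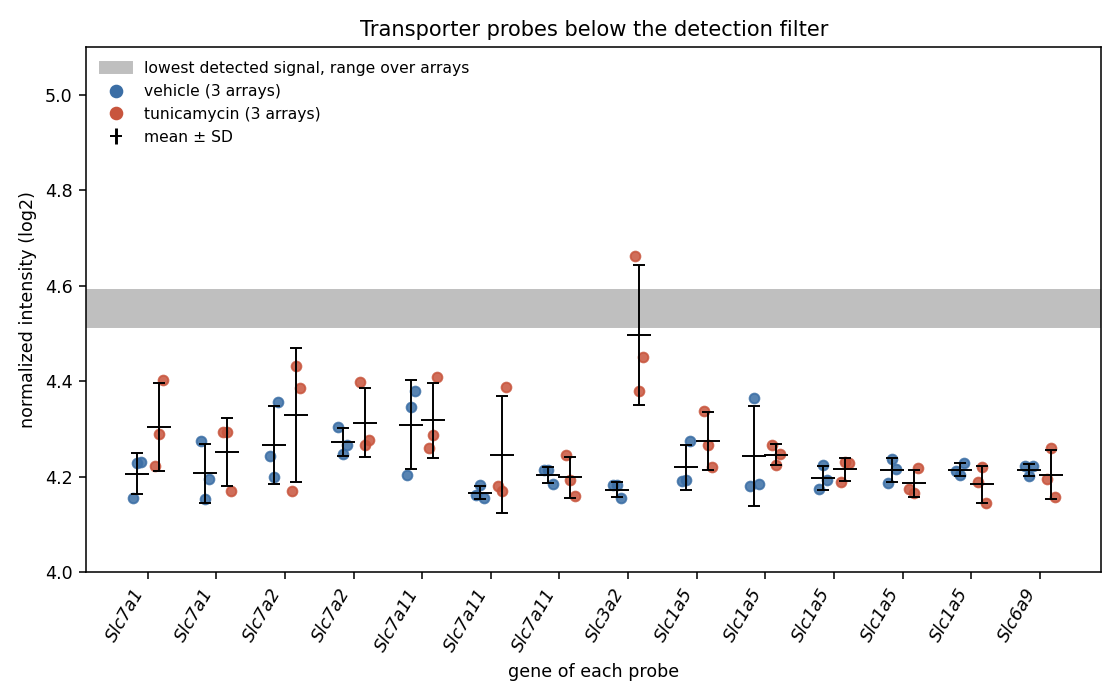
Normalized log2 intensity of the 14 transporter probes below the detection filter on 3 vehicle and 3 tunicamycin arrays, with group mean and SD, beside the range of the lowest detected signal (grey band, 4.51 to 4.59). One Slc3a2 point, on tunicamycin replicate 1, lies above the band, and the points of the other 13 probes lie below it.

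Other plasma membrane transporters of amino acids and related solutes went in both directions. Of 39 listed genes, 37 had a probe and 17 were measured, of which 3 rose, 7 fell and 7 did not pass the test. Their median log2 fold change was -0.04, beside -0.02 over all named genes, of which 31.2% rose and 33.1% fell. Slc6a6, the taurine transporter, fell 2.15-fold (log2 value -1.10 ± 0.13, SE, adjusted p = 2.83e-05, limma). Slc38a4, a system A transporter of liver, fell 1.89-fold, and Slc6a12, which carries betaine, rose 1.87-fold. Within the SLC38 family, Slc38a5, a system N transporter, was not well above background in vehicle livers and was at least 1.54-fold higher after tunicamycin. It passed the filter through the tunicamycin arrays alone, so a difference was built into its selection. Slc7a4, among the 7 falls, passed the filter through the vehicle arrays alone, with the same limit. In the SLC7 family Slc7a8, the light chain LAT2, detected on 1 of 3 tunicamycin arrays, had a log2 fold change of -0.54 ± 0.13 (SE, adjusted p = 0.00385, limma). Slc43a1 and Slc16a10, which carry large neutral and aromatic amino acids without the heavy chain, fell 1.51-fold and 1.48-fold. Slc1a2, a glutamate transporter of pericentral hepatocytes, was at -0.20 on the log2 scale and did not pass the threshold (adjusted p = 0.117, limma).

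The genes that use what these transporters carry were read beside them. For cystine and glutathione, 11 of 16 genes were measured, 3 rose and 7 fell, with a median log2 fold change of -0.33. By the same test, 31.2% of all named genes rose and 33.1% fell. Ggt6, among the 7 falls, passed the filter through the vehicle arrays alone, so a difference was built into its selection. Beside Slc7a11, Chac1, which degrades glutathione, rose 6.95-fold, and Gss, the second enzyme of glutathione synthesis, rose 2.08-fold. Csad, an enzyme of taurine synthesis, fell 7.26-fold and Oplah, which recycles 5-oxoproline, 2.37-fold. Gclm, a subunit of the first enzyme of glutathione synthesis, had a log2 fold change of -0.76 ± 0.12 (SE, adjusted p = 0.00026, limma).

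For arginine, ornithine and lysine, which Slc7a2 carries, 14 of 18 genes were measured, 3 rose and 9 fell, with a median log2 fold change of -0.72. Beside this list and the next ones stand 31.2% of all named genes that rose and 33.1% that fell. Arg1, the arginase of the urea cycle, fell 4.55-fold, Slc25a15, the mitochondrial ornithine carrier, 3.39-fold, and Gamt, an enzyme of creatine synthesis, 2.96-fold. Odc1, which makes putrescine from ornithine, rose 2.79-fold. For glutamine, glutamate and asparagine, 8 of 12 genes were measured, 3 rose and 3 fell, with a median of -0.29. Aldh18a1, of proline synthesis, was called higher but was detected on 1 of 3 vehicle arrays, so no fold is given. Asns, the asparagine synthetase, rose 11.4-fold and Aspg, an asparaginase, fell 14.0-fold. For glycine and serine, 11 of 15 genes were measured, 1 rose and 6 fell, with a median of -0.42. Psat1, of serine synthesis, was at least 62.6-fold higher, while Gldc, of glycine breakdown, fell 5.73-fold and Shmt1 5.35-fold. Psat1, the 1 rise of this list, passed the filter through the tunicamycin arrays alone, so a difference was built into its selection. Slc6a9 was thus higher in livers in which 6 of the 11 measured genes of glycine and serine use were lower. The share of all named genes that fell was 33.1%.

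ATF4 and the factors that act with it rose in 10 of 13 genes and fell in 0 by limma, with a median log2 fold change of 1.37. Of all named genes, 31.2% rose and 33.1% fell. At an unadjusted p under 0.05, 1 of the 13, Jdp2, was lower, but it was not well above background on any tunicamycin array and passed the filter through the vehicle arrays alone. Atf4 itself rose 3.69-fold, Ddit3 276-fold, Nupr1 278-fold and Atf3, detected on 2 of 3 vehicle arrays, 66.4-fold. The vehicle mean of Atf3, 4.61 on the log2 scale, was near the lowest detected signal, so its fold is uncertain in size. For Cebpb, which encodes C/EBP beta, the log2 fold change of -0.28 did not pass the threshold (adjusted p = 0.0844, limma). Hspa5, the chaperone BiP, was called higher but was detected on 1 of 3 vehicle arrays, where its mean was near background, so no fold is given. Beside these, the rises of Slc1a4 and Slc6a9 were 4.07-fold and 2.0-fold, and Slc38a2 had a fall. The difference between the transporters and these genes was not tested.

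**Figure D4:**
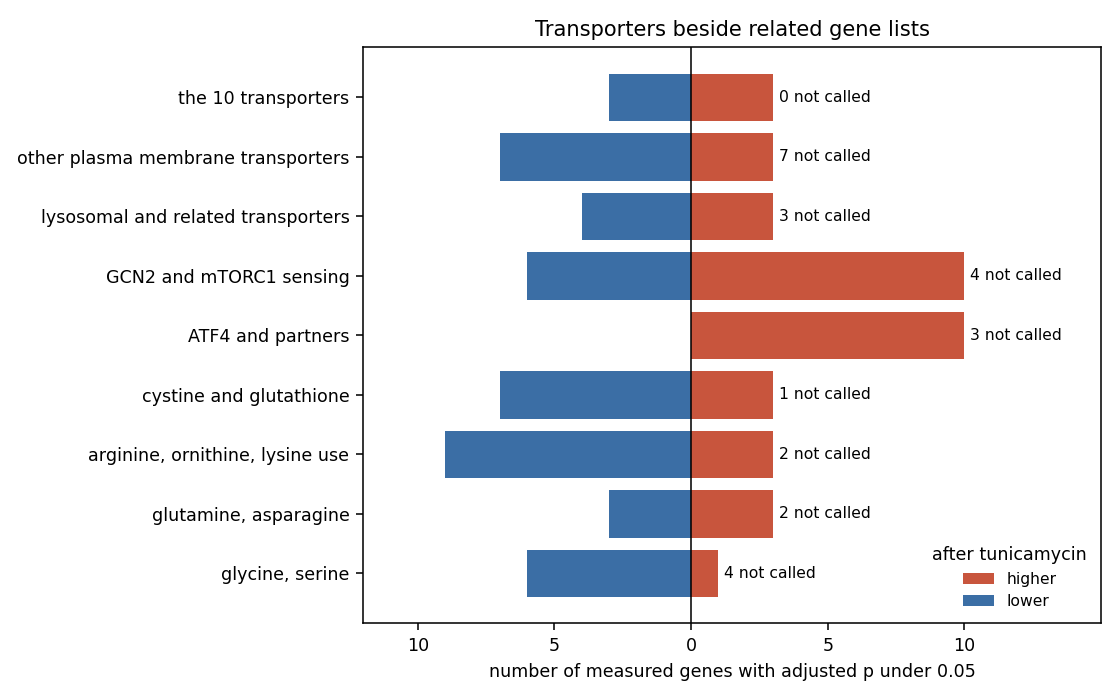
Number of measured genes that rose (red) or fell (blue) after tunicamycin by limma at an adjusted p under 0.05, for the 10 transporters and 8 related lists, with the number not called beside each bar. ATF4 and its partners hold 10 rises and 0 falls, and the transporters 3 of each.

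The genes with the profiles most like that of a transporter were sought over the 6 arrays, among 9326 other named genes, by the Euclidean distance of log2 profiles centred on the vehicle mean. For Slc1a4 these were Kctd15, Slc16a6 and Mybbp1a, at distances of 0.39, 0.44 and 0.49. For Slc38a3 they were Rtn4, Trim34a and Dcaf4, at 0.12, 0.17 and 0.18. With 6 arrays in 2 groups, such likeness says mainly that the change was of similar size.

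**Figure D5:**
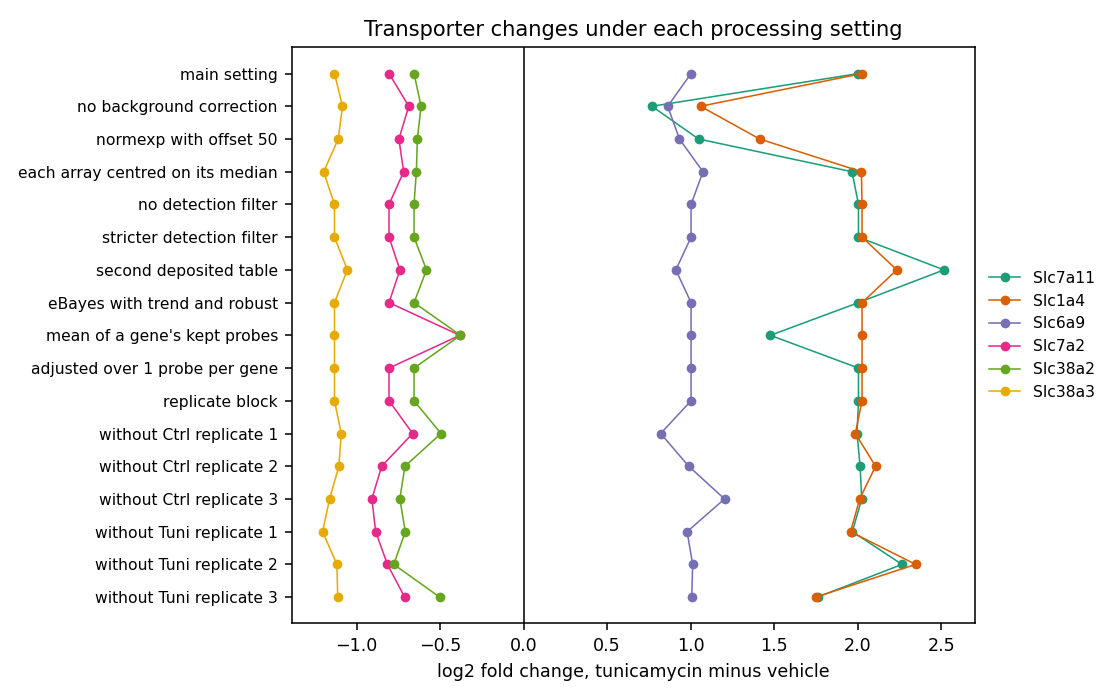
Log2 fold change of the 6 measured transporters (tunicamycin minus vehicle) under the main setting and 16 alternatives. No line crosses 0; Slc7a11 ranges from 0.77 to 2.52 and Slc1a4 from 1.06 to 2.35, while Slc38a3 stays between -1.20 and -1.06.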

How the data were processed

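The main values were the deposited average bead intensity of each probe (per the file headers), neither background-subtracted nor normalized, as its values show. The deposited detection p-value stands beside each signal. A second deposited table, from its values background-subtracted and quantile-normalized intensity, served as an alternative. The sources used here name no scanner, software or batch. With limma 3.58.1 (R 4.3.3), normexp corrected the background from the detection p-values with an offset of 16, followed by quantile normalization and log2. The offset shrinks the changes of dim probes. The detection filter kept the 16559 probes whose detection p was under 0.05 on 3 or more arrays. Each gene was represented by its brightest kept probe. Where 1 group was not detected, a fold is a bound against the higher of the own and the lowest detected signal per array. Such a bound compares group means, carries no error and depends on the background setting. Errors of fold changes are standard errors, and the number of arrays limits the precision. The fit was also run on simulated data, with changes added to few probes after normalization. In the real data 61.5% of kept probes were called, so that run is not evidence for the calls.

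Names came from the platform annotation: 34885 probes had 1 symbol, 18 several and 10378 none. The members and lists were chosen with earlier results of these data known. All members were named, the 3 largest called changes of each related list, and a few further list genes chosen after their values were seen. Probe sequences were not used here, so cross-binding between related genes was not assessed. Protein identities were planned but not run. Alternatives covered background, normalization, filter, test, probe choice, replicate block and each array left out.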

Additional observations from a re-analysis of the deposited data

How the results depend on the processing

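Across 16 alternative settings, the number of transporters that rose was 3 or 4 and the number that fell 2 or 3, and no transporter changed direction. Leaving out each array in turn gave 3 rises and 3 falls each time, and 5476 to 5925 named genes called, beside 5997 in all arrays. Without a detection filter Slc3a2 joined the rises and Slc38a2 left the falls (adjusted p = 0.0590). The sizes for the 2 dimmest transporters depended on the background treatment: without background correction the log2 fold change was 0.77 for Slc7a11 and 1.06 for Slc1a4, and with an offset of 50 it was 1.05 and 1.41. With 1 median per array the median log2 fold change of all named genes was -0.05, beside -0.02. With the replicate number as a block, adjusted p was 0.00250 for Slc38a2 and 6013 named genes were called. The same-numbered arrays shared deviations at r = 0.13, 0.05 and 0.02, so the numbers were not taken to pair the samples. The block changed no call of a transporter. Brightness limits what can be said of Slc7a1, Slc3a2 and Slc1a5, whose signals lay at the background.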

Other observations

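Transporters of lysosomes and related compartments and genes that sense amino acid supply are close to the plasma membrane transporters in function. Of 15 listed genes of the first group, 10 were measured, 3 rose and 4 fell, with a median log2 fold change of -0.09. Slc38a10 rose 3.31-fold, while Slc15a4 and Slc15a3, which carry histidine and peptides out of lysosomes, fell 2.62-fold and 2.04-fold. Of 32 genes of amino acid sensing by GCN2 and mTORC1, 20 were measured, 10 rose and 6 fell, with a median of 0.27. Castor2, among the 6 falls, passed the detection filter through the vehicle arrays alone, so a difference was built into its selection. Sesn1, a sestrin, fell 3.41-fold, while the sestrin Sesn2, detected on 2 of 3 vehicle arrays, rose 2.30-fold. The vehicle mean of Sesn2, 4.63 on the log2 scale, was near the lowest detected signal. Ddit4, an inhibitor of mTORC1, rose 2.53-fold and Rheb, an activator of mTORC1, 2.33-fold. These counts stand beside 31.2% of named genes that rose and 33.1% that fell.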
